A study of Mus musculus with 8 samples.

Results

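Acyl-CoA thioesterases are the enzymes that split acyl-CoA esters into a free acid and coenzyme A. The genes Acot1, Acot2, Acot3, Acot4, Acot7, Acot8, Acot9, Acot11, Acot12 and Acot13 were taken from the liver count table by symbol, which gave 10 of its 24940 genes. All 10 passed the filter on low counts, together with 12340 genes in all. The livers came from C57BL/6 males of 2 genotypes with 4 livers each. FXRKO livers (livers 1 to 4) carried the genotype Bcl6(fl/fl), FXR(homo), and BCL6LKOFXRKO livers (livers 5 to 8) carried Alb-Cre in addition. FXR, the bile acid receptor, is by genotype deleted in the whole body in all 8 animals, and the control livers carry floxed, undeleted Bcl6. Cre is driven by the Albumin promoter, which is active in hepatocytes, so the comparison is of hepatocyte loss of the repressor BCL6 on a background without FXR. The methods name both free feeding and a fast of 4 hours and do not say which applied to these livers, and their age is not given in the sources used here.

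Fatty acids enter metabolism only after they are joined to coenzyme A, and thioesterases run this step backwards. They thereby set how much acyl-CoA is left for oxidation, lipid synthesis or bile acid conjugation, and how much coenzyme A is free. The type I enzymes ACOT1 to ACOT6 share one fold and come from a gene cluster of recent duplications, while ACOT7 to ACOT13 are type II enzymes with a hotdog fold. In liver several peroxisomal and mitochondrial members are known targets of PPAR alpha, the fatty acid receptor, and rise with fasting.

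Acot2, Acot1, Acot4 and Acot3 lie in this order on the forward strand of mm10 chromosome 12, in a cluster that also holds Acot5 and Acot6 and runs from 83987861 to 84109783. The 250 bases upstream of each start site are shown because these neighbors differed widely in how far they moved between the genotypes, and those of Acot12 on chromosome 13 because it was the only member to fall. They are RefSeq promoters of GRCm38.p6, the build of mm10. Of the 10 members, 9 had an entry in this table. For Acot7 the entry used (chr4:152185358-152185607) does not lie at the start of the counted transcript, 152178100. Capitals mark the letters AGGTCA, the core that nuclear receptors recognize, and TATAAA, each on either strand.
Acot2 (chr12:83987611-83987860, +): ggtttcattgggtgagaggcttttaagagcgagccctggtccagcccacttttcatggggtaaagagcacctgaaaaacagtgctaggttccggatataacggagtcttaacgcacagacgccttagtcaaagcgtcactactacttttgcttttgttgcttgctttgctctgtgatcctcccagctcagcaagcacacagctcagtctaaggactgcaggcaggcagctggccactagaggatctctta
Acot1 (chr12:84009252-84009501, +): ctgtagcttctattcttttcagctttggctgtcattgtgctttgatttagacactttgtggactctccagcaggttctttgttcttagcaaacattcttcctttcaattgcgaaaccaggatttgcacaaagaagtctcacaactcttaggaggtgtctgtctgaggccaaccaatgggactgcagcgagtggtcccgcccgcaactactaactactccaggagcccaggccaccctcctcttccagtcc
Acot4 (chr12:84038129-84038378, +): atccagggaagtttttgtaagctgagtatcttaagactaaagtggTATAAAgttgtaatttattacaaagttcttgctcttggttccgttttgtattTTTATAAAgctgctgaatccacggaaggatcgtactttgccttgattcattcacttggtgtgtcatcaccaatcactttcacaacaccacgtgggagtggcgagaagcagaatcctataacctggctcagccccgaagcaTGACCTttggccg
Acot3 (chr12:84051894-84052143, +): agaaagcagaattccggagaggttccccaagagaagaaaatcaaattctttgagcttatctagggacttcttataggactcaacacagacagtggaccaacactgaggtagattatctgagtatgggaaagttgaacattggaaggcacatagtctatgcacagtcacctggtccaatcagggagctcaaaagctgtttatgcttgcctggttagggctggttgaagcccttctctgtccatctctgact
Acot12 (chr13:91741271-91741520, +): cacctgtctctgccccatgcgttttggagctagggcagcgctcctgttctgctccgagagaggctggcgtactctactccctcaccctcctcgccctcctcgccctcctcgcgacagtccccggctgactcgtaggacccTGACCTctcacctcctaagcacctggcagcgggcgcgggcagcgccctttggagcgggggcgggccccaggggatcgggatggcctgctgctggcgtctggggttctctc

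AGGTCA was searched on both strands in windows that add the first 50 bases of the transcript to these 250. It was found in 3 of the 9 members, on the reverse strand at -13 to -8 in Acot4, at 18 to 23 in Acot3, past the printed stretch, and at -110 to -105 in Acot12. Of all 32851 promoters in the table, 16.3% held it. The form bound by PPAR alpha, a direct repeat of AGGNCA with 1 base between the copies, was in none of the 9 member windows and in 0.381% of all promoters. TTCCNNGAA, the core of the BCL6 site, and the looser TTCNNNGAA, which contains it, were in none of the 9 either, against 4.81% and 8.3% of all promoters. TATAAA was found in Acot4 and Acot9, against 13.6% of all promoters, and 2 of the 3 matches in Acot4 overlap each other on opposite strands. CCAAT was in 6 of the 9, against 37.4% of all. These are matches of letters in short windows and say nothing about binding.

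The libraries held between 7586241 and 11839503 counts on genes. Levels are given as CPM, counts divided by library size after TMM scaling, and each gene was tested with edgeR's quasi-likelihood test, with p-values adjusted over the 12340 tested genes and a call at an adjusted p under 0.05. The labels list 8 separate liver samples with no batch and no pairing and do not describe the animals further, so p-values measure the spread between these samples. Bcl6 itself was at 49.6 ± 19.4 CPM (SD, n = 4) in FXRKO livers and 7.44 ± 3.24 (SD, n = 4) in BCL6LKOFXRKO livers, with a log2 fold change of -2.72 (edgeR adjusted p = 0.00123). Nr1h4, the gene of FXR, still had reads in all 8 libraries, at 60.0 ± 2.46 CPM in FXRKO livers and 43.5 ± 3.69 in BCL6LKOFXRKO livers (SD, n = 4), and its log2 fold change was -0.46 (edgeR adjusted p = 0.00497). Its counts therefore do not check the deletion, and livers with intact FXR were not analyzed here. The 50 most counted genes took 31.2% to 32.6% of each FXRKO library and 41.7% to 45.1% of each BCL6LKOFXRKO library. With total counts in place of TMM factors, the log2 fold changes of all genes shifted by a median of -0.16. In these whole-liver libraries, fewer cells of a type and less RNA per cell cannot be told apart.

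Of the 10 thioesterase genes, 5 rose in BCL6LKOFXRKO livers (Acot2, Acot3, Acot4, Acot11 and Acot13), 1 fell (Acot12) and 4 did not pass the test (Acot1, Acot7, Acot8 and Acot9). Among all tested genes, 16.2% were called higher and 13.5% lower. The members' median log2 fold change was 0.48, beside 0.01 over all tested genes. The rises of Acot11 and Acot13 were small and lost their calls in some fits, and without liver 2, the shallowest library, 3 members were called higher. The rises of Acot2, Acot3 and Acot4 and the fall of Acot12 kept their calls with each liver left out.

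**Figure D1:**
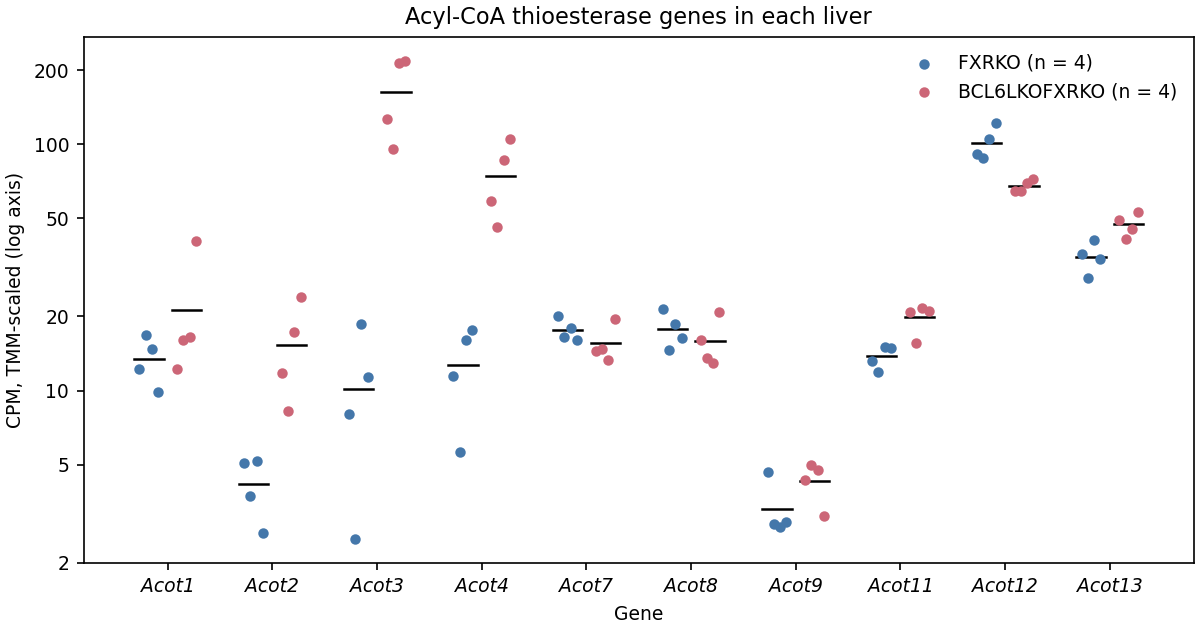
CPM (log axis) of each thioesterase gene in the 4 FXRKO livers (blue) and the 4 BCL6LKOFXRKO livers (red), with 1 point per liver and a black bar at each group's mean. The groups are farthest apart for Acot3, whose means were 10.1 and 163 CPM, and BCL6LKOFXRKO points lie lower without overlap only for Acot12.

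The peroxisomal enzymes come first, since they held the largest rises. Acot3 (NM_001346701, chromosome 12 from 84052144 to 84060400) encodes a peroxisomal thioesterase for long-chain acyl-CoA. It was at 8.01, 2.5, 18.7 and 11.4 CPM in FXRKO livers 1 to 4 and at 126, 95.5, 213 and 218 CPM in BCL6LKOFXRKO livers 5 to 8. The lowest BCL6LKOFXRKO liver stood above the highest FXRKO liver by a wide margin, and the FXRKO livers themselves spread widely, with liver 2 lowest at 20 counts. The ratio of the means was 16.1, and the log2 fold change was 4.0 (SE 0.56, 95% interval 2.69 to 5.30, edgeR adjusted p = 0.00155). By estimated rise, Acot3 ranked 82 of the 12340 tested genes.

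Acot4 (NM_134247, chromosome 12 from 84038379 to 84044723), which encodes the peroxisomal succinyl-CoA thioesterase, was at 11.4, 5.62, 16.01 and 17.6 CPM in FXRKO livers and 58.9, 46.1, 86.7 and 105 CPM in BCL6LKOFXRKO livers. Again liver 2 was lowest of the FXRKO livers and liver 6 lowest of the BCL6LKOFXRKO livers, and the groups did not overlap. Its mean rose 5.85-fold, a log2 fold change of 2.54 (SE 0.37, 95% interval 1.69 to 3.38, edgeR adjusted p = 0.00115). After each genotype's mean was removed, the log2 CPM of Acot3 and Acot4 correlated with r = 0.94 over the 8 livers, or 0.95 without liver 8, a description of libraries that share depth and scaling.

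Acot8 (NM_133240, chromosome 2 from 164792768 to 164804881) encodes the broad-range peroxisomal thioesterase that also acts on bile acid intermediates. It was at 21.4, 14.6, 18.7 and 16.3 CPM in FXRKO livers and 16.01, 13.6, 12.95 and 20.8 CPM in BCL6LKOFXRKO livers. The groups overlapped over most of their range. Its log2 fold change was -0.16 with a 95% interval from -0.54 to 0.22 (edgeR adjusted p = 0.517), which lies wholly below the intervals of Acot3 and Acot4.

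Among mitochondrial enzymes, Acot2 (NM_134188, chromosome 12 from 83987861 to 83993875) encodes the long-chain thioesterase of the mitochondrial matrix. It was at 5.10, 3.75, 5.16 and 2.65 CPM in FXRKO livers and at 11.78, 8.25, 17.3 and 24.1 CPM in BCL6LKOFXRKO livers. Every BCL6LKOFXRKO liver was above every FXRKO liver, with livers 7 and 8 the highest. The mean rose 3.69-fold, with a log2 fold change of 1.89 (SE 0.33, edgeR adjusted p = 0.00132).

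Acot13 (NM_025790, chromosome 13 from 24817955 to 24831489), or Them2, encodes a small thioesterase associated with mitochondria that binds the lipid transfer protein PCTP. It was at 35.8, 28.6, 40.9 and 34.2 CPM in FXRKO livers and 49.3, 41.4, 45.4 and 53.2 CPM in BCL6LKOFXRKO livers. The groups did not overlap, but the highest FXRKO liver (liver 3) and the lowest BCL6LKOFXRKO liver (liver 6) nearly touched. Its log2 fold change was 0.44 (SE 0.13, edgeR adjusted p = 0.0227), a rise of 1.36-fold. The adjusted p was 0.0783 without liver 2, 0.0566 without liver 4 and 0.0585 without liver 5, and with total counts in place of TMM factors it was 0.126.

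Acot9 (NM_001313718, chromosome X from 155262443 to 155297654), a further mitochondrial member, was at 4.68, 2.87, 2.79 and 2.93 CPM in FXRKO livers and 4.33, 4.98, 4.77 and 3.09 CPM in BCL6LKOFXRKO livers. It had 23 to 49 counts per library. FXRKO liver 1 and BCL6LKOFXRKO liver 8 each sat inside the other group's range. The log2 fold change was 0.36 (95% interval -0.17 to 0.89, edgeR adjusted p = 0.295).

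Of the cytosolic enzymes, Acot12 (NM_028790, chromosome 13 from 91741521 to 91786148) encodes the liver acetyl-CoA hydrolase, which releases acetate. It was at 91.5, 88.1, 105 and 121 CPM in FXRKO livers and at 64.9, 64.4, 69.6 and 72.0 CPM in BCL6LKOFXRKO livers. All BCL6LKOFXRKO livers lay below all FXRKO livers, and they were close to each other. The log2 fold change was -0.58 (SE 0.12, edgeR adjusted p = 0.0028), to 0.668 of the FXRKO mean.

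Acot11 (NM_025590, chromosome 4 from 106744561 to 106799831), or Them1, encodes a long-chain thioesterase known for its role in brown fat and placed here with the cytosolic members. It was at 13.2, 11.9, 15.05 and 14.9 CPM in FXRKO livers and 20.8, 15.7, 21.7 and 21.0 CPM in BCL6LKOFXRKO livers. Livers 5, 7 and 8 stood together well above the FXRKO livers, while liver 6 was just above them. The log2 fold change was 0.52 (SE 0.15, edgeR adjusted p = 0.0164), a rise of 1.44-fold, and the adjusted p was 0.0563 without liver 2 and 0.0816 with total counts. Fam151a, whose exons cover 21.2% of those of Acot11 on the other strand, was at 3.99 ± 0.843 and 5.62 ± 0.904 CPM (SD, n = 4 each), a log2 fold change of 0.49 (edgeR adjusted p = 0.101). It was looked up after the overlap was seen, and its part in the count of Acot11 was not tested.

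Acot1 (NM_012006, chromosome 12 from 84009502 to 84017669) encodes the cytosolic long-chain thioesterase, a close copy of Acot2. It was at 12.3, 16.9, 14.7 and 9.84 CPM in FXRKO livers and 12.2, 16.02, 16.6 and 40.3 CPM in BCL6LKOFXRKO livers. Livers 5, 6 and 7 lay within the FXRKO range, and liver 8 stood apart with 444 counts against 121 to 170 in the other BCL6LKOFXRKO libraries. The log2 fold change of 0.68 had a 95% interval from -0.15 to 1.5 (edgeR adjusted p = 0.198), and without liver 8 it was 0.16 (adjusted p = 0.568). Acot1 lies between Acot2 and Acot4 in the cluster and was not called, while they were. Whether its change differs from theirs was not tested.

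Acot7 (NM_133348, chromosome 4 from 152178100 to 152271855), the cytosolic enzyme most abundant in brain, was at 20.1, 16.5, 17.9 and 15.99 CPM in FXRKO livers and 14.5, 14.7, 13.3 and 19.6 CPM in BCL6LKOFXRKO livers. Livers 5, 6 and 7 were below all FXRKO livers and liver 8 was among them. Its log2 fold change was -0.18 (95% interval -0.51 to 0.15, edgeR adjusted p = 0.396).

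**Figure D2:**
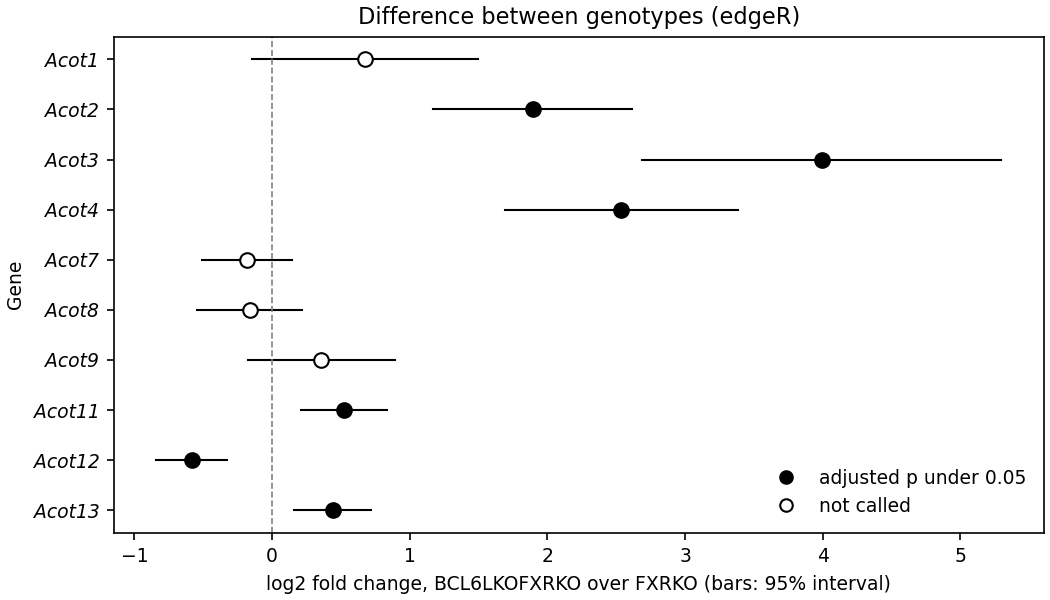
Log2 fold change of each thioesterase gene, BCL6LKOFXRKO over FXRKO, with its 95% interval (bars) from edgeR over 4 livers per genotype. Filled circles mark an adjusted p under 0.05 and open circles genes that were not called, and the estimates run from -0.58 for Acot12 to 4.0 for Acot3.

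Counted by overlap alone, all BCL6LKOFXRKO livers were above all FXRKO livers in 5 members and below them in 1, where 16.1% and 15.2% of all tested genes had such a separation. These are the same 6 genes that passed the edgeR test. For each of them, the exact two-sided permutation test of log2 CPM over the 70 orderings of the 8 livers gave p = 0.0286. This is the smallest value possible, and full separation of the groups fixes it, so it adds nothing to the overlap count. For Acot1, Acot7, Acot8 and Acot9 the permutation test gave 0.286, 0.20, 0.371 and 0.143.

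Of the risen genes, Acot4 and Acot3 are direct neighbors in the cluster on chromosome 12, and Acot1 separates them from Acot2. Acot6, its last gene and no member of the list, was counted 6, 5, 7 and 9 times in FXRKO livers and 44, 16, 40 and 21 times in BCL6LKOFXRKO livers. Its log2 fold change was 2.07 (SE 0.37, edgeR adjusted p = 0.00112). All BCL6LKOFXRKO livers were above all FXRKO livers, as in 16.1% of all tested genes. Acot5 had no count in 7 libraries and 2 counts in liver 8 and was not tested. Of the 6 cluster genes, 5 were thus tested, 4 rose and Acot1 was not called, where 16.2% of all tested genes were called higher. Acot2, Acot3 and Acot4 were already counted among the members, so this is not a separate result.

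The genes that flank the cluster were examined within 100000 bases on either side, a window chosen after the members' values were seen. Numb had a log2 fold change of -0.19, Riox1 one of 0.12 and Elmsan1 one of 0.49 (edgeR adjusted p = 0.268, 0.671 and 0.138), and Dnal1 and Pnma1 did not pass the filter. None of these 3 tested genes passed with edgeR, DESeq2 or limma voom. Most genes did not pass either, since edgeR called 16.2% of all tested genes higher and 13.5% lower. At an unadjusted p under 0.05 there were 0 with edgeR, 0 with DESeq2 and 1 with limma voom.

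**Figure D3:**
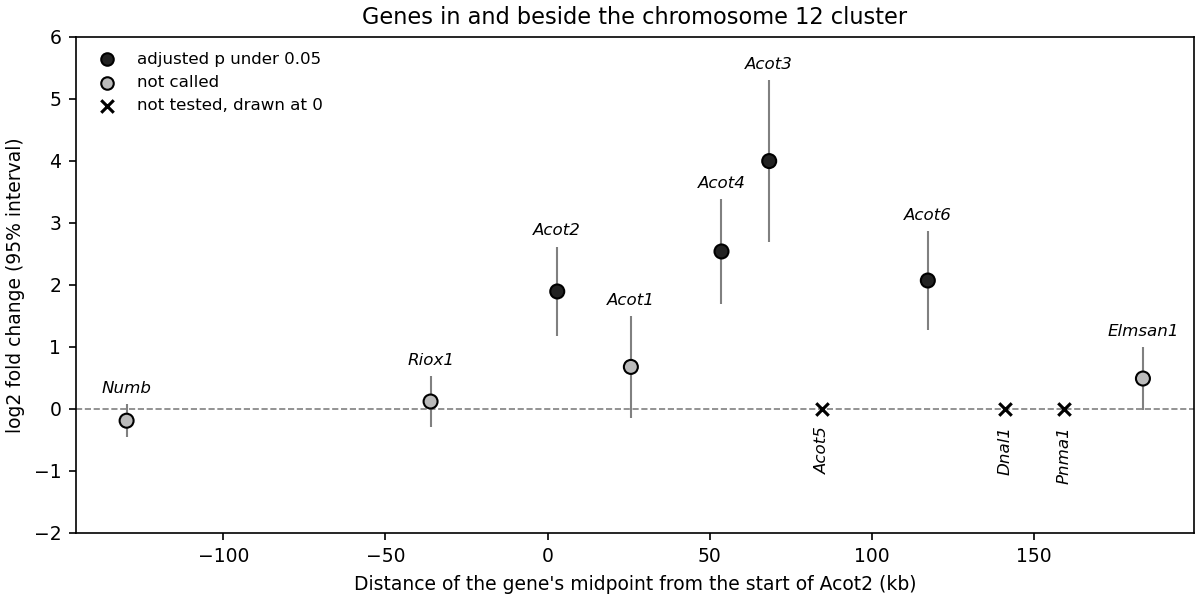
Log2 fold change (circles) with its 95% interval (bars) of the genes in and beside the cluster, against the distance in kb of each gene's midpoint from the start of Acot2. Acot2, Acot4, Acot3 and Acot6 (filled) were called higher, Acot1 and the flanking genes Numb, Riox1 and Elmsan1 (grey) were not called, and crosses at 0 mark genes that were not tested.

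The cluster genes are close copies, which bears on their counts, since the aligner kept only reads with 1 location. Over 1337 aligned columns the transcripts of Acot1 and Acot2 were 93.8% identical, and those of Acot3 and Acot4 were 84.6% identical over 726. Of all 100-base windows, the read length, 21.9% of those in Acot1 and 17.1% of those in Acot2 occurred exactly in another Acot transcript, those of Acot2 all in Acot1. For Acot3 and Acot4 these shares were 4.44% and 0.36%, and for Acot9, through its copy Acot10, 0.968%. Acot7, Acot8, Acot11, Acot12 and Acot13 shared no window with another Acot gene. Counts of Acot1 and Acot2 are therefore uncertain through the windows they share. The windows come from GENCODE transcripts, and those of Acot1, Acot3 and Acot4 are longer than the ones counted (2272 against 1553 bases for Acot1). Shares in the counted transcripts may differ. Upstream of the start sites the cluster genes were far less alike, with the longest local alignment among the members, between Acot2 and Acot4, matching 63 of 103 columns.

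Overlapping genes bear on the counts too, because the counting command names no strand. The exons of Acot3 share 9.08% of their bases, and those of Acot4 share 9.21%, with the antisense gene 4732463B04Rik. Acot3 also shares 11.5% and Acot4 0.494% with Gm49366, a protein-coding gene annotated on the same strand. Counting windows shared with any gene, these overlaps included, 16.6% of the 100-base windows of Acot3 and 8.85% of those of Acot4 were not unique to it. Neither 4732463B04Rik nor Gm49366 was found under that symbol among the counted genes, so their levels could not be given. The window shares are over GENCODE transcripts of 3431 bases for Acot3 and 6203 for Acot4, against 2683 and 2320 in the count table. The exon shares are over all annotated exons, 6674 bases for Acot4. Shares of the counted transcripts may therefore differ. Acot8 overlaps Snx21 over 12.3% of its exon bases. Acot12 overlaps the antisense gene 4833422C13Rik over 4.52%. That antisense gene was at 6.16 ± 0.365 and 4.34 ± 0.511 CPM (SD, n = 4 each), a log2 fold change of -0.51 (edgeR adjusted p = 0.0455), and its part in the fall of Acot12 was not tested.

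To compare levels between genes, counts were divided by transcript length (RPKM, with the TMM factors and the lengths of the count table). In FXRKO livers Acot13 was highest at 51.2 ± 7.46 RPKM, followed by Acot12 at 33.5 ± 4.99 and Acot8 at 15.5 ± 2.60 (SD, n = 4). The ranges over livers of these first genes did not meet, Acot13 lying above Acot12 and Acot12 above Acot8. From Acot8 down, through Acot7, Acot1, Acot4, Acot3, Acot11, Acot2 and Acot9, the range of each gene met that of the next.

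In BCL6LKOFXRKO livers Acot13 was again first at 69.5 ± 7.46 RPKM, but Acot3 was second at 60.9 ± 23.1, followed by Acot4 at 32.0 ± 11.4 and Acot12 at 22.3 ± 1.22 (SD, n = 4). The ranges of Acot13 and Acot3 met, as did those of Acot3 and Acot4 and of Acot4 and Acot12. Acot12 stood above Acot8 without meeting it, and below Acot8 each range met the next. Acot3 had held place 7 of 10 and Acot4 place 6 in FXRKO livers. Among the lower genes, Acot2 rose from 1.90 ± 0.548 to 7.0 ± 3.15 RPKM and still ended in place 8.

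Summed over the 10 genes, the level was 138, 115, 153 and 139 RPKM in FXRKO livers and 209, 179, 252 and 302 RPKM in BCL6LKOFXRKO livers. The groups did not overlap, and the ratio of the means was 1.73. Without Acot3 and Acot4 the sums were 111 to 139 RPKM in FXRKO livers and 123 to 176 in BCL6LKOFXRKO livers, and these overlapped. No test was made of any sum, since the genes were chosen with results known.

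**Figure D4:**
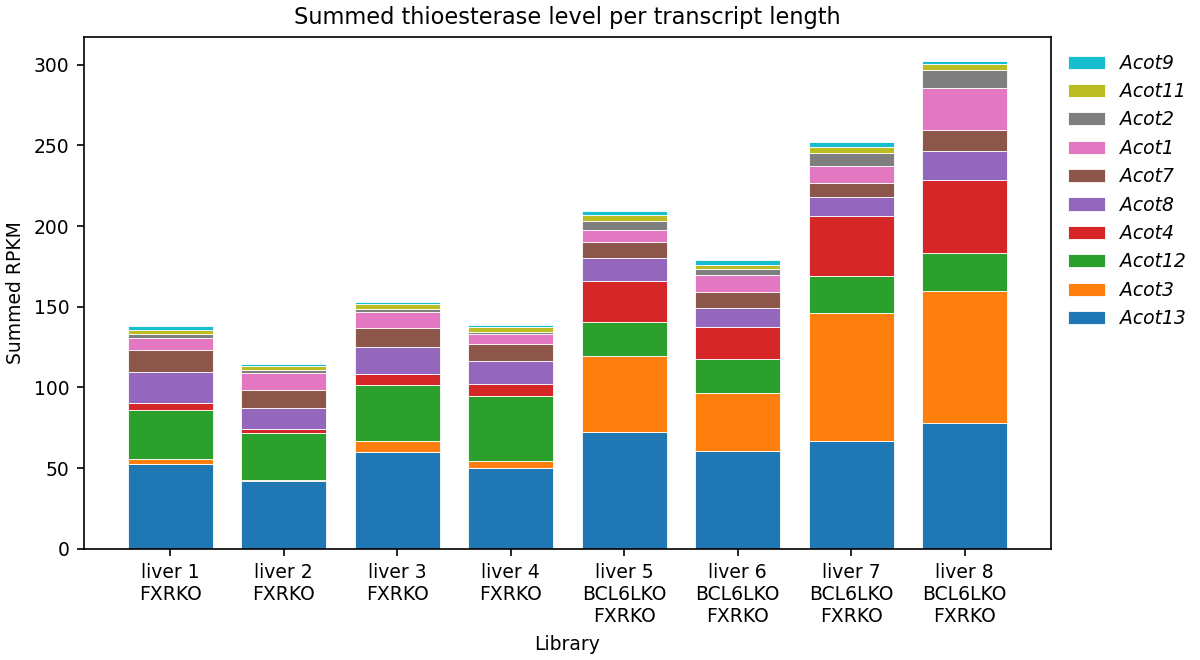
Summed RPKM of the 10 thioesterase genes in each liver, stacked by gene, with livers 1 to 4 FXRKO and livers 5 to 8 BCL6LKOFXRKO. The bands of Acot3 (orange) and Acot4 (red) together made up 2.93% to 9.06% of the sum in FXRKO livers and 31.0% to 46.4% in BCL6LKOFXRKO livers.

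By the compartment in which the enzymes are known to work, the peroxisomal genes (Acot3, Acot4 and Acot8) held 14.1% to 19.7% of the summed RPKM in FXRKO livers and 37.7% to 50.9% in BCL6LKOFXRKO livers. Their sum went from 24.8 ± 6.04 to 107 ± 35.9 RPKM (SD, n = 4), a ratio of 4.31. The mitochondrial genes (Acot2, Acot9 and Acot13) went from 55.0 ± 7.86 to 78.9 ± 9.68 RPKM, a ratio of 1.43 and the groups did not overlap. Most of this sum was Acot13, with means of 51.2 and 69.5 RPKM, whose call was lost in some fits. The cytosolic genes (Acot1, Acot7, Acot11 and Acot12) went from 56.4 ± 3.37 to 50.02 ± 11.2 RPKM with overlap, and their share went from 41.7% to 21.4% of the sum. Within this set, Acot12 alone went from 24.7% to 9.77% of the sum. These are shares of transcripts, not of enzyme activity.

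Ratios between neighboring copies were also taken, chosen after the values were seen. Acot3 over Acot4 in RPKM was 0.384 to 1.01 in FXRKO livers and 1.79 to 2.13 in BCL6LKOFXRKO livers. Acot2 over Acot1 was 0.157 to 0.294 in FXRKO livers and 0.365 to 0.741 in BCL6LKOFXRKO livers. Neither ratio overlapped between the genotypes, and no test was made of them. How many other gene pairs separate in this way was not examined. Acot2 over Acot1 also rests on counts that are uncertain through the windows these genes share.

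Among livers of one genotype, the members did not vary as one group. With each genotype's mean removed, Acot7 and Acot8 correlated with r = 0.93 over the 8 livers and Acot3 and Acot13 with r = 0.85, and both were 0.85 without liver 8. Acot1 and Acot3, which lie in the same cluster, had r = 0.06, or -0.34 without liver 8. Of 9359 tested genes whose counts averaged 50 or more, those whose levels followed Acot13 most closely in this measure were Zrsr1, Bloc1s5 and Nmnat3 (r = 0.98, 0.97 and 0.96). For Acot3 they were Dpm1, Akr1c13 and Bmp2 (r = 0.99, 0.97 and 0.95), and for Acot12 they were Ccdc171, Rdh14 and Usp36, each with r = 0.97. These are descriptions over 8 livers that share depth and scaling. The named genes are the highest of 9359 values for each member, and how high such maxima run by chance was not tested.

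Other thioesterase genes outside the list went both ways. Of 13 listed, 9 were tested, 4 were called higher and 3 lower, and their median log2 fold change was 0.18. Beside these counts and those of the lists that follow, 16.2% of all tested genes were called higher and 13.5% lower. Besides Acot6, those that rose were Them6 (log2 fold change 1.43) and the palmitoyl-protein thioesterases of the lysosome Ppt1 (0.59) and Ppt2 (0.40), with edgeR adjusted p = 5.1e-04, 0.00141 and 0.0141. Baat, which joins bile acids to glycine or taurine and is a relative of the type I enzymes, fell from 317 ± 25.7 to 192 ± 25.2 CPM (SD, n = 4, log2 fold change -0.73, edgeR adjusted p = 7.8e-04). Them4 and the acyl-protein thioesterase Lypla1 fell as well, with log2 fold changes of -0.77 and -0.54 (edgeR adjusted p = 0.00281 and 0.0111). Hibch, the mitochondrial hydrolase of valine breakdown, and Lypla2 had log2 fold changes of -0.18 and 0.18 and were not called. Acot5, Acot10, Them5 and Olah did not pass the filter.

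Acyl-CoA synthetases make the substrates of thioesterases. Of 17 tested, 3 rose and 7 fell, where 16.2% and 13.5% of all tested genes did so. Their median log2 fold change was -0.09. Slc27a2, a very long-chain synthetase of peroxisomes and endoplasmic reticulum, fell from 1571 ± 69.7 to 622 ± 48.6 CPM (SD, n = 4, edgeR adjusted p = 2.9e-06), and the medium-chain synthetase Acsm3 fell by 1.63 on the log2 scale (edgeR adjusted p = 8.3e-06). Acss3 and Acsl5, of short-chain and long-chain specificity, rose by log2 fold changes of 1.05 and 0.54 (edgeR adjusted p = 0.00338 and 0.00394).

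Coenzyme A itself, the other product of thioesterases, was represented by 15 genes of its synthesis, breakdown and transport, of which 1 rose and 6 fell with a median log2 fold change of -0.40. Nudt7, the peroxisomal enzyme that degrades coenzyme A and its esters, fell from 943 ± 211 to 39.7 ± 3.73 CPM (SD, n = 4), a log2 fold change of -4.57 (edgeR adjusted p = 1.2e-09). Slc25a42, the mitochondrial carrier of coenzyme A, had a log2 fold change of -0.83 (edgeR adjusted p = 6.6e-05). Vnn3, of the pantetheinase family that recycles pantothenate, rose by 1.66 (edgeR adjusted p = 1.4e-06). Of 7 tested acyl-CoA binding proteins, 1 rose and 4 fell, with a median of -0.86. Scp2 and Acbd5, which serve lipid transfer at peroxisomes, had log2 fold changes of -1.45 and -0.86, and Acbd3, a Golgi protein, one of 0.54 (edgeR adjusted p = 6.1e-06, 0.0012 and 0.00673).

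Beta-oxidation uses acyl-CoA in the same organelles. Of 19 genes in a list for peroxisomal beta-oxidation, 4 rose and 11 fell, with a median log2 fold change of -0.49. This list also holds some peroxisomal genes outside that pathway, such as Phyh. Phyh, which starts the breakdown of branched fatty acids, had a log2 fold change of -1.30 (edgeR adjusted p = 1.4e-05). The peroxisomal fatty acid transporter Abcd2 and the carnitine acetyltransferase Crat rose, with log2 fold changes of 2.31 and 1.19 (edgeR adjusted p = 7.0e-04 and 0.001). Of 20 genes of mitochondrial beta-oxidation, 0 rose and 10 fell with edgeR, with a median of -0.32. DESeq2 and limma voom gave the same counts, and 1 gene was higher at an unadjusted p under 0.05 with each tool. Among these, Eci2 and Acad11 had log2 fold changes of -1.06 and -0.66 (edgeR adjusted p = 1.6e-04 and 4.7e-04).

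Of 18 PPAR alpha marker targets, a list that also holds Ppara itself, 2 rose and 9 fell with a median of -0.46. Ppara fell from 258 ± 38.1 to 130 ± 34.0 CPM (SD, n = 4, edgeR adjusted p = 0.00104). Pdk4, which blocks the use of pyruvate, rose from 5.02 ± 1.39 to 23.9 ± 12.9 CPM and the hormone gene Fgf21 from 0.261 ± 0.322 to 2.24 ± 0.945 CPM (SD, n = 4, edgeR adjusted p = 0.00523 and 0.00192). The lists share some members and are described by their counts alone, to be read against the 16.2% and 13.5% of all tested genes called higher and lower.

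**Figure D5:**
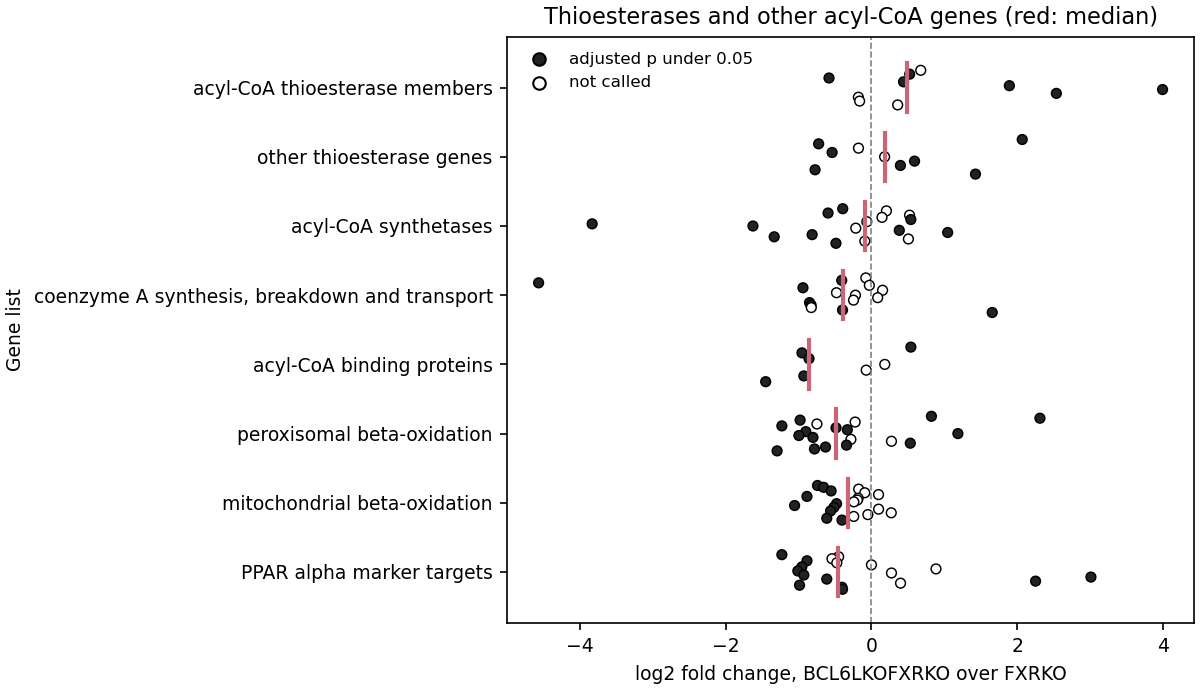
Log2 fold change, BCL6LKOFXRKO over FXRKO, of every tested gene (circles, filled at an adjusted p under 0.05) in the thioesterase list and 7 other lists, with a red line at each list's median. The median was 0.48 for the thioesterase members and between -0.86 and 0.18 for the others.

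Markers of other liver cells differed in how far they moved, and 16.2% of all tested genes were called higher. Of 10 tested markers of stellate cells and fibroblasts, 7 were called higher, and their summed level was 231 to 327 CPM in FXRKO livers and 468 to 586 CPM in BCL6LKOFXRKO livers. For cholangiocytes 2 of 5 tested markers of 8 listed were called higher (sums of 58.4 to 85.3 against 92.3 to 157 CPM). The cholangiocyte marker Sox9 had a log2 fold change of -0.81 and was not called (edgeR adjusted p = 0.0773). For macrophages and monocytes 3 of 9 were called higher (291 to 397 against 413 to 608 CPM). For endothelial cells it was 1 of 6, and their sums overlapped (101 to 138 against 132 to 168 CPM). For T cells, B cells and neutrophils, 2 of 8 listed markers were tested and 1 was called higher (5.80 to 9.26 against 11.9 to 18.7 CPM). The tested ones were the neutrophil markers S100a9, which was called, and S100a8, which was not. None of the T cell or B cell markers passed the filter. No marker in these lists was at 0 in every library. Of 11 hepatocyte markers, which identified the tissue in every library, 3 were called higher and 2 lower, and their sum of 79066 to 90636 CPM against 172467 to 198031 CPM held a mean of 44554 and 135488 CPM from Alb. The part of cell composition in the members' levels was not tested.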

How the data were processed

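Liver mRNA from 4 FXRKO and 4 BCL6LKOFXRKO males was sequenced from stranded libraries with 100-base single-end reads. The authors aligned the reads to mm10 with STAR 2.5.2, kept reads with 1 location and few mismatches, and deposited a table of raw exon counts made with HOMER 4.10, which keeps 1 transcript per gene and lists its length. Per the file header, the counting command names no strand, so reads of overlapping or antisense genes cannot be told apart. The study's methods name DESeq2 for differential expression.

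The counts were analyzed in R 4.3.3 with edgeR 4.0.16 (filterByExpr, TMM factors, robust quasi-likelihood fits with genotype as the only term, Benjamini-Hochberg adjustment over 12340 genes). Calls used the adjusted p, with a threshold of 0.05. CPM and RPKM used the TMM factors and, for RPKM, the lengths in the deposited table. Correlations used log2 CPM with a prior count of 0.5. A floor of 3 counts corresponds to 0.253 to 0.395 CPM and covers counting error only. Exact permutation tests were two-sided. The scripts were tested on simulated counts first. The members, gene lists and the rule for named genes were chosen with earlier results of these data known. The rule names all members, Bcl6, the other thioesterase genes, the 2 genes of smallest adjusted p in each direction of every other list and, for the 3 members of highest mean RPKM, the 3 genes that correlate best with each. A gene that it also names is not reported here. Shared windows, overlaps and transcript identities used GENCODE transcripts and exons of the mm10 assembly matched to each gene. Some of these transcripts are longer than the ones counted. Alternatives were DESeq2 1.42.0, limma 3.58.1 voom with quality weights, other scalings, filters and fold thresholds, and each liver left out.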

Additional observations from a re-analysis of the deposited data

Results flagged for a closer look

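Among 22 groups of 4 livers, 3 had a liver whose gap to its nearest neighbor was large for the range of the group, where chance gives about 1 in 20. In BCL6LKOFXRKO livers, Acot1 was at 40.3 CPM in liver 8 and at most 16.6 in the other livers, a gap of 0.845 of the group's range. In FXRKO livers, Acot9 was at 4.68 CPM in liver 1 and at most 2.93 in the other livers, a gap of 0.927 of the range. In BCL6LKOFXRKO livers, Acot11 was at 15.7 CPM in liver 6 and at least 20.8 in the other livers, a gap of 0.856 of the range. The cause of these was not tested. Without liver 8 the log2 fold change of Acot1 was 0.16 in place of 0.68, and without liver 6 that of Acot11 was 0.61 in place of 0.52. Without liver 1 that of Acot9 was 0.57 in place of 0.36.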

How the results depend on the processing

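The number of members called higher was 5 with RLE size factors, with the 50 most counted genes left out before TMM, with DESeq2, with limma voom, with no filter and with at least 10 counts in every library. It was 3 with total counts alone and 3 at an absolute log2 fold change above 1, and with each liver left out it ran from 3 to 5. The number called lower was 1 in all of these fits but became 0 at an absolute log2 fold change above 1. Both thresholds of fold leave out small changes by construction, and the cause of the other moves was not tested. Of 150 log2 fold changes of single members under the alternatives, 144 kept direction and call, 6 lost their call and none gained one or changed sign. The 6 were Acot11 with total counts alone (0.37) and without liver 2, and Acot13 with total counts alone (0.28) and without livers 2, 4 or 5. For Acot1, limma voom gave 0.21 in place of 0.68. The log2 ratio of the summed RPKM, 0.79, ran from 0.63 with total counts to 0.97 without Acot13, and from 0.65 to 0.89 with each liver left out. No paired analysis was made, since no label pairs the livers. The labels number the libraries 1 to 8 across the genotypes, with no replicate number in common. The IDs in the titles run consecutively across the genotypes for some livers, and no label says that they mark littermates or a shared day. Depth limits Acot9, with at most 49 counts per library, and Acot6, with at most 44. With 4 livers per genotype, the exact permutation test cannot go below 0.0286. Loss of Bcl6 and the presence of Cre come together in these livers and cannot be told apart.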
